A study of Mus musculus with 80 samples.

Results

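The clustered protocadherins were examined cell by cell in the substantia nigra pars reticulata (SNr), the basal ganglia nucleus whose GABAergic neurons fire tonically and inhibit the thalamus and midbrain. Members were every gene of the expression table whose symbol begins with Pcdha, Pcdhb or Pcdhg, which gave 59 of 22815 genes: 15 of the alpha cluster, 22 of the beta cluster and 22 of the gamma cluster. In the median neuron 8 of these 59 genes were detected. No pair of the 62 neurons examined held the same set, which was also true over all genes of the table. The gamma member Pcdhgc4 was the only member found above 1 TPM in at least 50% of the neurons (64.5%, and 40.3% above 10 TPM).

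Cells were picked manually after dissociation of SNr tissue from C57Bl/6 mice with the GAD1-EGFP transgene, which marks GABAergic neurons with a green fluorescent protein, and each was sequenced alone by SMART-seq2. The 72 GFP-positive cells were from postnatal days 14, 15, 16 and 20 (9, 23, 29 and 11 of them), and the 8 GFP-negative cells from days 14, 15 and 16 (3, 2 and 3 of them). Levels are given as TPM (transcripts per 1000000 transcripts, a measure that is already per length), and any value above 1 TPM was called detected. The main set was made of the 62 of 72 GFP-positive cells in which over 5000 genes were detected (9, 20, 24 and 9 at the 4 ages). The labels name no animal and all animals carried the same transgene, so each age or GFP class was treated as 1 sample. Every SD is a spread from cell to cell, and no p-value was computed from cells.

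The 3 clusters lie side by side on one chromosome and encode cadherin-like adhesion proteins of the neuronal surface. In the alpha and gamma clusters each member has its own large first exon, which encodes the outer part of the protein and is spliced to constant exons that encode a common cytoplasmic tail, whereas each beta member is a gene of its own with no constant exons. Each first exon has its own promoter, and neurons are known to switch on a few of them in combinations that differ from cell to cell, through CTCF and cohesin loops to distant enhancers and through DNA methylation of the promoters that stay silent. The proteins pair in cis and recognise only matching sets in trans, and this is known to let the branches of a neuron tell self from non-self. The 5 C-type members at the ends of the alpha and gamma clusters (Pcdhac1, Pcdhac2, Pcdhgc3, Pcdhgc4 and Pcdhgc5) are regulated apart from the others and are known to be shared by many neurons of a type.

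In the GRCm38 mouse genome the alpha cluster spans bases 36930184 to 37187661 of chromosome 18, the beta cluster 37264938 to 37524479 and the gamma cluster 37661793 to 37841873. GENCODE M21 listed 56 of the 59 symbols. In that annotation 12 of the alpha members share 3 blocks of exon sequence of 2860 bases in all, against a median of 2487 bases of their own, and the 22 gamma members share 3 blocks of 2116 bases against a median of 2703 bases of their own. The beta members share 0 bases, so every base of a beta transcript belongs to 1 member, although the coding exons of neighbouring members resemble each other and reads of 25 bases may not resolve all of them, which was not tested. A fragment from the constant exons of the alpha or gamma cluster cannot be given to 1 member by its sequence, and its placement rests on the quantification software. The symbol Pcdha4-g is the synonym of a readthrough model that runs from the Pcdha4 first exon to the end of the gamma cluster, and its values cannot be told apart from those of Pcdha4 and the gamma constant exons by shared sequence.

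The clusters with shared exons and the beta cluster differed in their low values. The part of the shared exons in this was not tested. Among the 1364 beta values of the main cells (22 members in 62 cells), 77.3% were exactly 0, 6.09% lay between 0 and 1 TPM and 16.6% were above 1 TPM, and none of the low values was under 0.01 TPM. Of the 930 alpha values, only 5.38% were exactly 0 and 78.3% lay between 0 and 1 TPM, 96.3% of these under 0.01 TPM. The 1364 gamma values were alike, with 12% at 0 and 77.3% between 0 and 1 TPM, 98.6% of these under 0.01 TPM. The values between 0 and 1 TPM had medians of 4.75e-08 TPM (alpha), 1.36e-10 TPM (gamma) and 0.347 TPM (beta), so those of the clusters with shared exons were mostly far below the TPM of 1 fragment. Detection at TPM > 1 left 152 alpha values (16.3%), 226 beta values (16.6%) and 146 gamma values (10.7%), with median levels of 14.3, 15.7 and 11.9 TPM.

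The cells ranged from 5094 to 10236 detected genes and from 150661 to 6201546 estimated fragments (median 1785510) in the main set, and from 153638 to 3912911 fragments in the GFP-negative cells. A TPM of 1 for a transcript of 3 kb stood for 0.197 to 16 fragments (median 2.39), so the same threshold meant different numbers of fragments in different cells. For the beta cluster, where fragments are not shared, the 226 detected values stood for a median of 37.3 fragments (0.99 to 585), and 212 of them (93.8%) for at least 3 fragments. All 62 cells held Gad1 and Gad2, the enzymes of GABA synthesis, while Th, which marks dopaminergic neurons, was above 1 TPM in 4 cells and Slc17a6, a marker of glutamatergic neurons, in 0 cells, which allows a share of up to 4.84%. No pair of cells shared both index barcodes, and no columns were identical.

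Each GFP-positive neuron held a small part of the repertoire. The number of members detected was 8.45 ± 3.46 per cell (SD, n = 62; lowest 1, median 8, highest 17), made up of 2.45 ± 1.14 alpha members (0, 2 and 6), 3.65 ± 2.22 beta members (0, 3 and 11) and 2.35 ± 1.51 gamma members (0, 2 and 6). All 3 clusters were represented in 58 of the 62 cells. The alpha cluster had 0 detected members in 1 cell, the beta cluster in 3 cells and the gamma cluster in 2 cells. Cell 35, with 0 gamma members, held Pcdha4-g at 6.55 TPM, which was counted in the alpha cluster. For the alpha cluster 25 cells held 2 members and 16 cells held 3, whereas for the gamma cluster 23 cells held a single member. Some of these counts rest on values near the threshold. In cells 21, 25, 36, 41 and 91, each with 2 alpha members, the lower member was Pcdha7 at 1.36 to 2.49 TPM. The part of the shared exons in the alpha and gamma counts was not tested. Counted by fragments in place of TPM, 3.5 ± 1.89 beta members per cell stood on at least 3 fragments, close to the count by TPM.

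**Figure D1:**
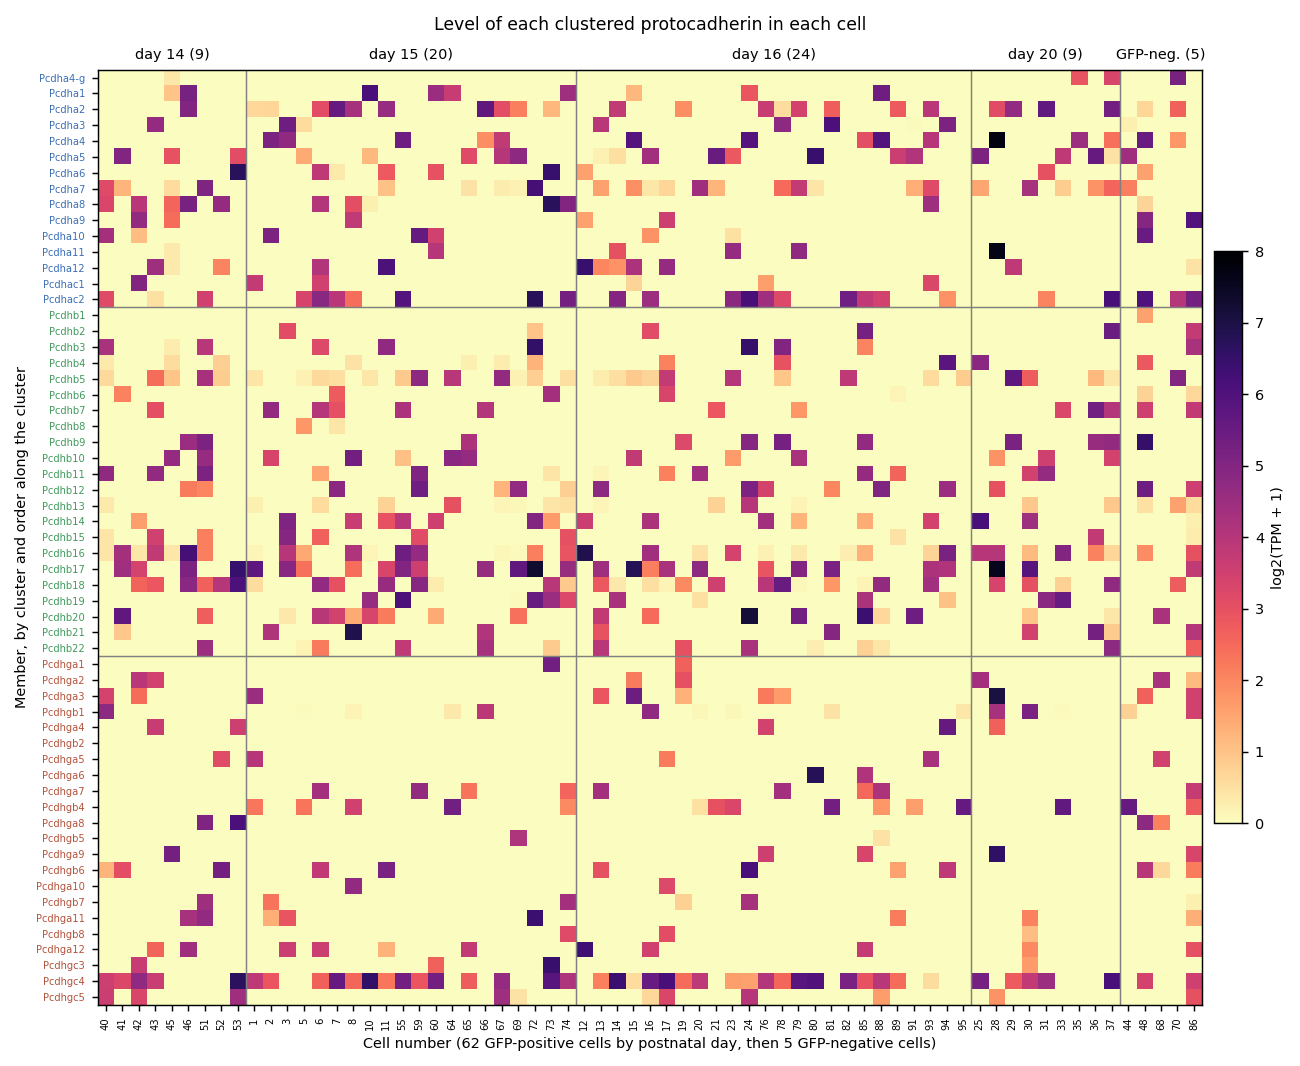
Level of each of the 59 members (rows) in each of 62 GFP-positive and 5 GFP-negative cells (columns, by postnatal day), as log2(TPM + 1). Rows follow the first exons along the alpha, beta and gamma clusters from top to bottom. Pcdha4-g, which was given no position, comes first. Each cell shows a few dark entries in each cluster, and the row of Pcdhgc4, filled in 40 of the 62 GFP-positive cells, is the fullest.

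**Figure D2:**
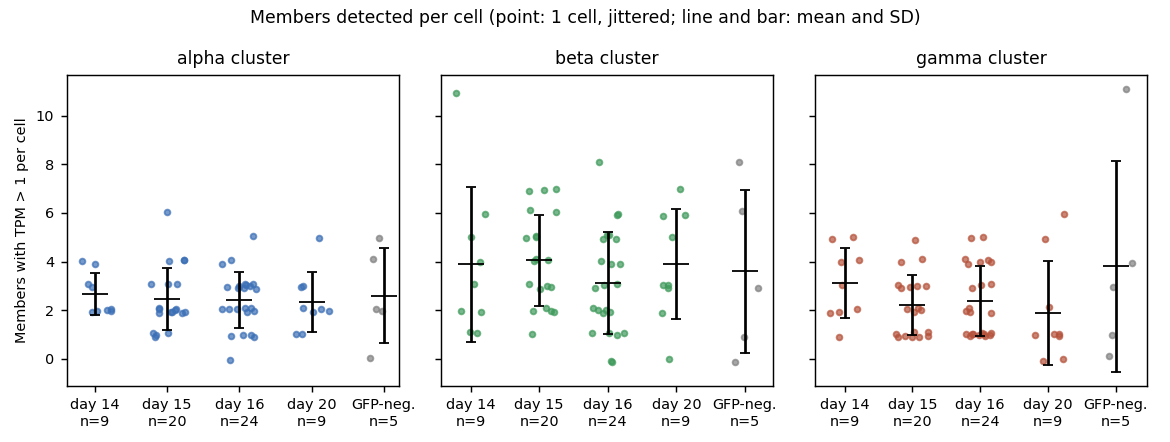
Members with a TPM above 1 per cell in the alpha, beta and gamma clusters, by postnatal day for the 62 GFP-positive cells and for the 5 GFP-negative cells with over 5000 genes; points are cells, lines and bars the mean and SD over cells. The ages overlap in every cluster, and the highest gamma count, 11, belongs to a GFP-negative cell.

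The highest member of a cluster carried over 50% of its signal in most cells for the alpha and gamma clusters, but not for the beta cluster. The highest member held a median of 68.2% of the summed TPM of the alpha cluster in a cell (30.9% to 100% over 61 cells), 50% for the beta cluster (20.4% to 100% over 59 cells) and 75.5% for the gamma cluster (30.8% to 100% over 60 cells). It held over 50% in 48, 29 and 47 of these cells, and over 90% in 21, 9 and 24. The member in that place changed from cell to cell: 13 alpha, 16 beta and 18 gamma members were the highest of their cluster in at least 1 cell. The median share was lowest in the beta cluster, the one without shared exons, and the part of fragment assignment in this was not tested.

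The summed TPM of a cluster varied more than its number of members. The alpha cluster summed to 60.7 ± 60.6 TPM per cell (SD, n = 62; lowest 0, median 44.9, highest 417), the beta cluster to 82.6 ± 71.1 TPM (0, 60.4 and 331) and the gamma cluster to 51.1 ± 47.1 TPM (0, 40 and 250). The highest alpha and gamma sums were both from day 20. In GFP-positive cell 28 of that day, Pcdha4 stood at 212 TPM, Pcdha11 at 197 TPM, Pcdhb17 at 190 TPM and Pcdhga3 at 130 TPM, each the highest value of that member in any main cell.

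The counts of the clusters were only weakly related across the 62 cells. Spearman's rho was 0.17 between alpha and beta counts, 0.19 between alpha and gamma counts and 0.29 between beta and gamma counts, given as a description since the points share their library. The number of members moved with the number of detected genes of the cell (rho = 0.59, and 0.68, 0.52, 0.50 and 0.67 within days 14, 15, 16 and 20) and little with estimated fragments (rho = 0.15). Its rho with the mean level of 7 astrocyte markers was -0.25 and with that of 8 oligodendrocyte markers -0.02. The part of these quantities in the counts was not tested.

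Across cells, 57 of the 59 members were detected in at least 1 of the 62 neurons, and the median member was detected in 7 cells (11.3%). For comparison, 17157 of all genes were detected in at least 1 cell, and among these the median gene was found in 43.5% of cells, against 12.9% for the 57 members. Where detected, members stood at levels like those of other genes: the median over genes of the median TPM when detected was 14.6 for members and 15.7 for all genes. The medians were thus apart in the share of cells and close in the level of the cells that held the gene. The genes were not matched for level, and the difference was not tested.

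**Figure D3:**
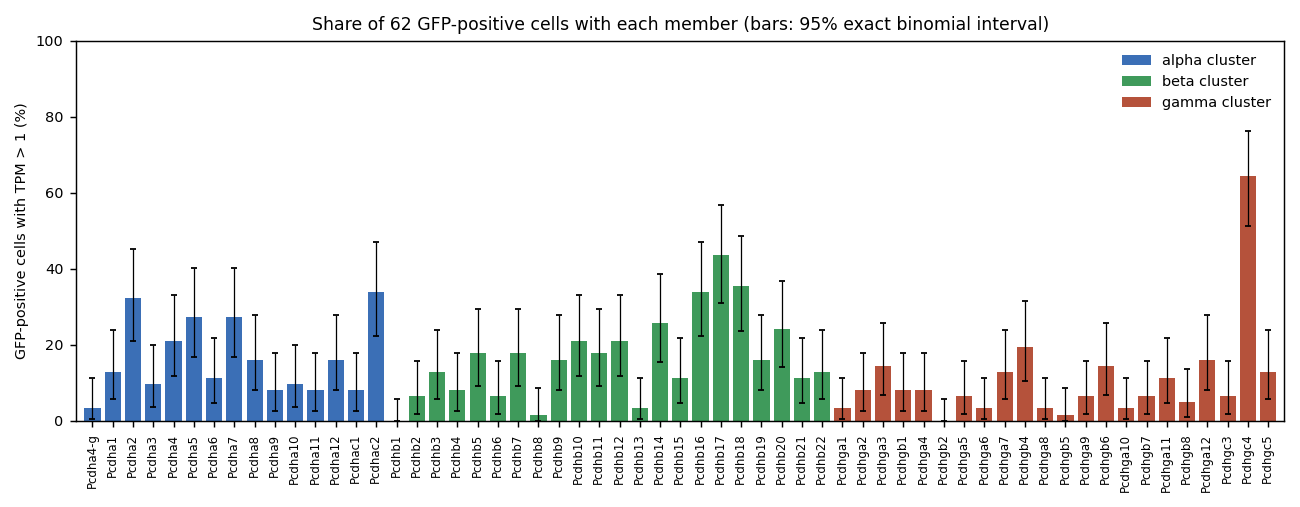
Share of the 62 GFP-positive cells with a TPM above 1 for each member, in percent, in order along the alpha (blue), beta (green) and gamma (red) clusters. Pcdha4-g, which was given no position, comes first. Lines are exact 95% binomial intervals, which cover counting error only. Pcdhgc4 stands at 64.5%, Pcdhb17 at 43.5%, and Pcdhb1 and Pcdhgb2 at 0.

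Of the alpha cluster, all 15 members were detected in at least 1 cell. The most frequent members other than the C-type were Pcdha2 in 20 cells (32.3%, 95% interval 20.9 to 45.3), Pcdha5 and Pcdha7 in 17 cells each (27.4%, 16.9 to 40.2), Pcdha4 in 13 cells (21%, 11.7 to 33.2) and Pcdha8 in 10 cells (16.1%, 8.02 to 27.7). Pcdha12 was found in as many cells as Pcdha8 and had a lower mean. The intervals of Pcdha2, Pcdha5, Pcdha7 and Pcdha4 overlap, so their order is not resolved by the number of cells. Frequency and level did not go together: Pcdha7 had a median of 4.63 TPM in the cells that held it and Pcdha4 25.6 TPM, with a highest value of 212 TPM. Above 10 TPM, Pcdha5 was found in 11 cells and Pcdha7 in 5, so their equal counts hold at 1 TPM only. In cells 21 and 91, Pcdha7 stood at 1.37 and 1.58 TPM beside Pcdha5 at 43.3 and 16 TPM. A like pattern recurred in cells 25 and 36. There Pcdha5 stood at 33.2 and 45.5 TPM, Pcdha7 at 1.82 and 2.49 TPM and Pcdha3 at 0.0146 and 0.0198 TPM. The part of fragment assignment in the values of Pcdha5 and Pcdha7, and so in their numbers of cells, was not tested. Pcdha4-g was detected in 2 main cells, both from day 20, at 6.55 and 8.98 TPM.

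The beta cluster held the most frequent members that are not C-type. Pcdhb17 was detected in 27 cells (43.5%, 31 to 56.7), at 3.39 to 190 TPM with a median of 23.2 TPM, and was the highest beta member in 14 cells. Next came Pcdhb18 in 22 cells (35.5%), Pcdhb16 in 21 cells (33.9%), Pcdhb14 in 16 cells (25.8%) and Pcdhb20 in 15 cells (24.2%). These 5 genes lie in the second part of the cluster along the chromosome, and over the 22 beta members Spearman's rho between order and the number of cells was 0.47. Among members that are not C-type, rho was -0.42 over 12 alpha members and 0.10 over 19 gamma members, and with the C-type members it was -0.22 over 14 and 0.24 over 22. Pcdhb1, the first beta gene, was at 0 TPM in all 62 cells, which allows a share of up to 4.84%. Pcdhb8 was detected in 1 cell, at 2.31 TPM.

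In the gamma cluster one C-type member was far more frequent than the rest. Among the 19 gamma members that are not C-type, the median was 4 cells, and the most frequent were Pcdhgb4 in 12 cells (19.4%, 10.4 to 31.4), Pcdhga12 in 10 cells (16.1%), Pcdhgb6 and Pcdhga3 in 9 cells each (14.5%) and Pcdhga7 in 8 cells (12.9%). Pcdhgb2 was above 1 TPM in 0 cells, with a highest value of 1.97e-06 TPM. Pcdhgb5 was detected in 1 cell, at 16.7 TPM. Some rare members stood at high levels when present: Pcdhga6, in 2 cells, stood at 16.3 and 107 TPM, and Pcdhga8, also in 2 cells, at 32.1 and 65.9 TPM.

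The C-type members differed widely in how many cells held them. Pcdhgc4, a gamma isoform known for its role in the survival of neurons, was detected in 40 of 62 cells (64.5%, 51.3 to 76.3), at 1.94 to 102 TPM with a median of 14.1 TPM, and its mean log2(TPM + 1) was 2.66 ± 2.29 (SD). Pcdhac2, an alpha isoform known for the spacing of serotonergic axons, was detected in 21 cells (33.9%, 22.3 to 47), at 2.57 to 106 TPM with a median of 20.4 TPM. The 3 other C-type members were infrequent, with Pcdhgc5 in 8 cells (12.9%, 5.74 to 23.9), Pcdhac1 in 5 cells (8.06%, 2.67 to 17.8) and Pcdhgc3 in 4 cells (6.45%, 1.79 to 15.7). The interval of Pcdhgc4 does not overlap those of the other 4, and the intervals of Pcdhgc5, Pcdhac1 and Pcdhgc3 overlap each other. Their highest values were 21 TPM for Pcdhgc5, 30.7 TPM for Pcdhac1 and 84.7 TPM for Pcdhgc3.

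**Figure D4:**
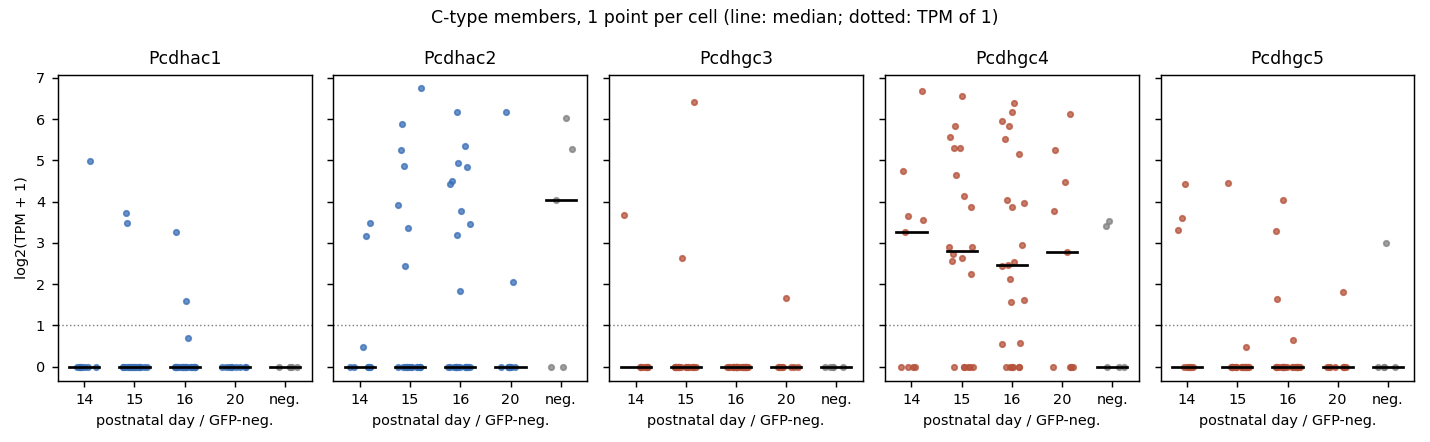
Level of the 5 C-type members in each cell, as log2(TPM + 1), by postnatal day for 62 GFP-positive cells and for 5 GFP-negative cells (neg.); lines are medians, and the dotted line marks a TPM of 1. The median of Pcdhgc4 is above the dotted line at each of the 4 ages and at 0 in the GFP-negative cells, whereas that of Pcdhac2 is near 0 at each age and above the line in the GFP-negative cells.

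Most cells held at least one C-type member, in 12 different combinations counting none. The number per cell was 1.26 ± 0.991 (SD, n = 62; 0 to 4), with 0 in 16 cells (25.8%), 1 in 21 cells, 2 in 19 cells, 3 in 5 cells and 4 in 1 cell. Pcdhgc4 was the single C-type member in 15 cells, Pcdhac2 and Pcdhgc4 formed the set in 12 cells, and Pcdhac2 was alone in 4 cells. Pcdhac2 and Pcdhgc4 were found together in 17 cells, out of 21 with the first and 40 with the second. In the cells that held it, Pcdhgc4 made up a median of 39.7% of the summed gamma TPM (1.87% to 100%) and over 50% in 18 cells, and Pcdhac2 a median of 47.7% of the alpha TPM (5.38% to 100%). Summed over all cells, Pcdhgc4 accounted for 34.2% of gamma TPM and Pcdhac2 for 15.8% of alpha TPM.

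Detection of Pcdhgc4 moved with the depth of the cell. The 40 cells with Pcdhgc4 had a median of 8674 detected genes and 2258166 fragments, and the 22 cells without it 6896 genes and 925902 fragments. For Pcdhac2 the medians were 8710 genes and 2241300 fragments in 21 cells with it, and 7722 genes and 1698244 fragments in 41 cells without it. The part of depth in these shares was not tested. At a threshold of 10 TPM, Pcdhgc4 was found in 40.3% of the 62 cells.

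The sets of members differed between neurons. The 62 cells held 62 different sets, and over the 1891 pairs of cells the number of shared members was 1.9 on average (median 2, highest 9), with 303 pairs (16%) sharing none and 97 pairs (5.13%) sharing 5 or more. The Jaccard index, the number of members in both cells over the number in either, was 0.125 ± 0.0884 (SD over pairs, which share cells). Computed the same way over all genes of the table it was 0.564, and over 12 non-clustered protocadherins 0.538 ± 0.174. The index also follows the share of cells that hold each gene, and the lists were not matched for it. Among genes found in at least 1 cell, the median share was 12.9% for members and 43.5% for all genes. The contrast in overlap was thus not separated from the contrast in frequency. Over all genes the 62 cells also held 62 different sets. The sets of a single cluster were less distinct, with 51 different alpha sets, 59 beta sets and 45 gamma sets, and 18, 1 and 67 pairs of cells with identical sets.

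**Figure D5:**
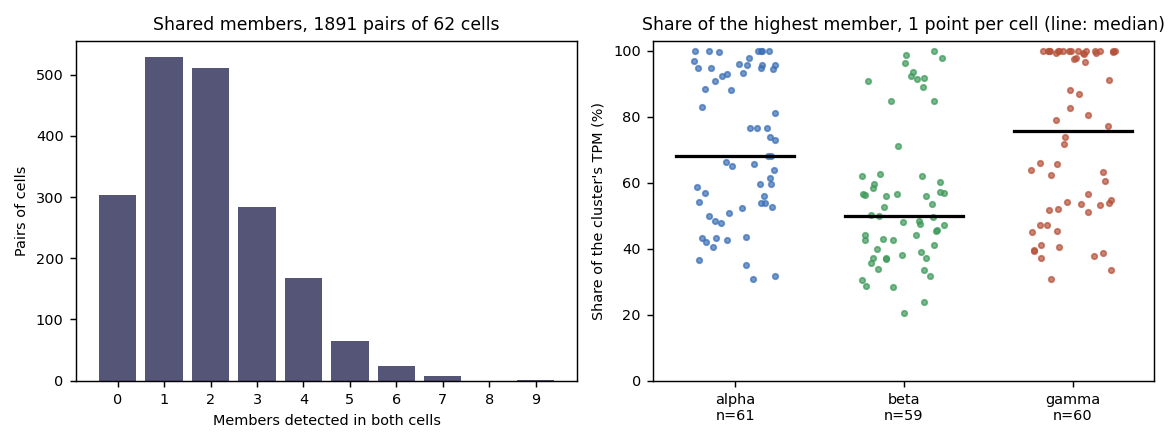
Left, the number of members detected in both cells of a pair over the 1891 pairs of 62 GFP-positive cells, with 303 pairs at 0 and 1 pair at 9. Right, the share of a cluster's summed TPM held by its highest member in each cell with a detected member (61, 59 and 60 cells), in percent, with medians of 68.2%, 50% and 75.5% for alpha, beta and gamma.

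Overlap was alike within and between ages. Pairs of the same postnatal day had a mean Jaccard index of 0.125 (538 pairs) and pairs of different days also 0.125 (1353 pairs). Without the 5 C-type members the mean over all pairs was 0.102, and without Pcdhgc4 alone it was 0.103 with 24.4% of pairs sharing none. Library indices were also compared, since cells were pooled with combinations of index barcodes: the mean was 0.126 for 1528 pairs with both indices different, 0.13 for 145 pairs that shared the first index and 0.115 for 218 pairs that shared the second. These means differ by much less than the spread between pairs.

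The most alike cells shared some members at like levels and others at different levels. Cells 6 and 11, both from day 15 and sharing the second index, held 17 and 12 members with 9 in common, a Jaccard index of 0.45. Of these, Pcdha12 stood at 16 TPM in cell 6 and 64.9 TPM in cell 11, Pcdhb18 at 25 and 23.1 TPM, and Pcdhga12 at 11 and 1.38 TPM. Cells 28 (day 20) and 76 (day 16), which shared the first index, had 7 members in common. Pcdhb17 stood at 190 and 6.53 TPM, Pcdhga3 at 130 and 3.73 TPM and Pcdhga9 at 93.7 and 10.6 TPM. The others were nearer, with Pcdha2 at 7.81 and 11.8 TPM, Pcdhb12 at 6.88 and 9.71 TPM, Pcdhb18 at 9.36 and 14 TPM and Pcdhga4 at 5.3 and 10 TPM. The highest Jaccard index, 0.5, was between cells 21 and 91 of day 16, with different indices, which shared Pcdha5, Pcdha7 and Pcdhgb4 out of 5 and 4 members. Of these, Pcdha7 was near the threshold, at 1.37 TPM in cell 21 and 1.58 TPM in cell 91. Pcdhgb4 was the only gamma member detected in either cell, where gamma TPM summed to 6.94 and 2.06. The part of fragment assignment in this overlap was not tested.

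Many combinations of members occurred. Of the 1711 possible pairs of members, 991 (57.9%) were found together in at least 1 cell and 16 in at least 10 cells. The pair found together most often, Pcdhac2 with Pcdhgc4, was followed by Pcdhb17 with Pcdhgc4 in 16 cells, Pcdhb18 with Pcdhgc4 in 15 cells and Pcdha2 with Pcdhgc4 in 14 cells. Outside the C-type members, the neighbouring genes Pcdhb16 and Pcdhb17 were together in 13 cells, out of 21 and 27, and Pcdha2 with Pcdhb18 in 11 cells. These pairs are made of the most frequent members, and no expected number was computed for them.

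Across ages the number of members per cell changed little against its spread. It was 9.67 ± 3.57 at day 14 (SD, n = 9; lowest 5, median 10, highest 16), 8.7 ± 3.06 at day 15 (n = 20; 5, 8 and 17), 7.92 ± 3.57 at day 16 (n = 24; 1, 8 and 15) and 8.11 ± 4.08 at day 20 (n = 9; 2, 7 and 14). The ranges of the 4 ages overlap throughout, and the cells of day 14 also had the most detected genes (8627 ± 1379, against 7511 ± 1573 at day 20). Estimated depth also moved with age, with means of 1431344, 2562819, 2042055 and 759388 fragments at days 14, 15, 16 and 20, and its part in the counts was not tested. Of the 59 members, 41, 51, 51 and 37 were seen in at least 1 cell of days 14, 15, 16 and 20, and 23 at every age, where the larger numbers belong to the ages with more cells.

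Day 20 was compared with day 14 by the difference of mean log2(TPM + 1), among members detected in at least 10% of the cells compared, and a difference beyond 1 was counted. Of 39 members compared, 5 were higher and 5 lower at day 20, which is 25.6% against 27.6% of all 13466 genes compared (6.59% higher and 21% lower). On log2(FPKM + 1) the count was 3, which is 7.69% against 18.1% of all genes. Higher were Pcdha4 (difference 1.62), Pcdha2 (1.53), Pcdhb19 (1.15), Pcdhb7 (1.07) and Pcdhb14 (1.00). Lower were Pcdha8 (-2.18), Pcdhb18 (-1.23), Pcdhga8 (-1.23), Pcdhgb6 (-1.06) and Pcdhgc5 (-1.06). The median difference was -0.14 for members and -0.26 for all genes.

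These differences rested on few cells. Pcdha4 was detected in 0 of 9 cells at day 14 and in 3 of 9 at day 20, and Pcdha2 in 1 and 4 cells. Pcdha8 was detected in 5 of 9 cells at day 14 (median 4.91 TPM, highest 35.9 TPM), 4 of 20 at day 15 (highest 104 TPM), 1 of 24 at day 16 (21.1 TPM) and 0 of 9 at day 20, which allows a share of up to 33.3%. Pcdhb18 was detected in 6 of 9, 5 of 20, 8 of 24 and 3 of 9 cells in the same order. In each case the groups overlap, since cells without the member occur at every age.

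The intermediate ages were set against day 14 in the same way and share its 9 cells with the comparison above. At day 15, 3 members were higher and 4 lower of 39 compared, which is 17.9% of them, and 17.9% of all 13275 genes passed the same limit (4.32% higher and 13.5% lower). At day 16, 1 was higher and 4 lower of 31 compared, which is 16.1%, and 20.2% of all 12813 genes passed (4.14% higher and 16.1% lower). Pcdha8 and Pcdhb18 were among the lower members and Pcdha4 among the higher at both ages, with differences at day 15 of -1.23, -1.41 and 1.05. All of these differences rest on the same cells of day 14.

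Of the C-type members, Pcdhgc4, Pcdhac2 and Pcdhgc5 were detected at each age. Pcdhgc4 was detected in 5 of 9, 14 of 20, 16 of 24 and 5 of 9 cells of days 14, 15, 16 and 20, with medians over all cells of 8.52, 6.03, 4.48 and 5.85 TPM. Pcdhac2 was detected in 2 of 9, 7 of 20, 10 of 24 and 2 of 9 cells, with highest values of 10.1, 106, 71.4 and 71.4 TPM. Pcdhgc5 was found in 3, 1, 3 and 1 cells, and Pcdhac1 in 1, 2, 2 and 0 cells. Pcdhgc3 was not above 1 TPM in any cell of day 16 and was found in 1, 2 and 1 cells of the other ages. Between day 20 and day 14, Pcdhgc5 passed the difference of 1 and Pcdhac2, Pcdhgc3 and Pcdhgc4 did not, while Pcdhac1 was detected in too few cells to be compared.

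GFP-negative cells were few and of different kinds. Of the 8, cells 44 and 48 (day 14), 75 and 86 (day 16) held the dopaminergic marker Th at 4742 to 9481 TPM, cells 68 and 70 (day 15) and 77 (day 16) held the oligodendrocyte marker Mog at 5998, 10176 and 430 TPM, and cell 47 (day 14) had both Th and Mog at 0. Cells 47, 75 and 77 had under 5000 detected genes, which left 5 for the comparison. These 5 are set beside the 62 GFP-positive cells as they are, since the labels name no cell type among them.

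The number of members varied widely among the GFP-negative cells. Cell 77 held 1 member, cell 44 held 3, cell 68 held 4, cell 47 held 5, cell 75 held 6, cell 70 held 7, cell 48 held 15 and cell 86 held 21, against 0 to 17 in all 72 GFP-positive cells. Cell 86, from day 16, held 2 alpha, 8 beta and 11 gamma members and had 9173 detected genes and 3912911 estimated fragments, the most of the GFP-negative cells on both counts. Its highest gamma member, Pcdhga7 at 12 TPM, held 15.3% of the gamma TPM, and Pcdhgc4, Pcdhga3 and Pcdhgb1 followed at 10.5, 10.3 and 10.1 TPM. In the main GFP-positive cells that share was at least 30.8%.

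Of 36 members compared between 5 GFP-negative and 62 GFP-positive cells, 2 were higher and 2 lower by more than 1 on the log2 scale, which is 11.1%, against 37% of all 12978 genes (14.8% higher and 22.1% lower). Pcdha9 was higher, with a mean log2(TPM + 1) of 2.17 ± 2.99 (SD, n = 5) against 0.26 ± 0.93 (n = 62), and so was Pcdhac2, with 3.06 ± 2.88 against 1.46 ± 2.18. Pcdhb17 (0.76 ± 1.69 against 2.03 ± 2.51) and Pcdhgc4 (1.39 ± 1.90 against 2.66 ± 2.29) were lower. In all 4 cases the SD over the GFP-negative cells exceeded the difference. Without cell 44, 68 or 70, the number of members beyond the limit was 10 (27.8%), 8 (22.9%) or 12 (33.3%) in place of 4, while the share of all genes was 39.7%, 36.7% or 36%. Without cell 70 the share of members was thus near that of all genes. Without cell 48 or 86 the number was again 4 (11.8%).

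Cell by cell, the C-type members of the GFP-negative cells were as follows. Pcdhac2 stood at 63.7 TPM in cell 48, 37.4 TPM in cell 86 and 73.3 TPM in cell 75, all with Th, at 26.7 TPM in cell 47 and at 15.3 TPM in cell 70. It was under 1 TPM in cells 44, 68 and 77. Pcdhgc4 was detected in cells 48 and 86 only, at 9.66 and 10.5 TPM, Pcdhgc5 in cell 86 at 6.98 TPM, and Pcdhac1 in cell 75 at 1.58 TPM. Among cells with over 5000 genes, Pcdhac2 was thus found in 3 of 5 GFP-negative and 21 of 62 GFP-positive cells, and Pcdhgc4 in 2 of 5 and 40 of 62. Over all cells the numbers were 5 of 8 and 22 of 72 for Pcdhac2, and 2 of 8 and 42 of 72 for Pcdhgc4.

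Some members stood out in single GFP-negative cells. Pcdhb1, which was at 0 in every main GFP-positive cell, stood at 1.92 TPM in cell 48, whose other beta members reached 88.6 TPM (Pcdhb9). The model Pcdha4-g stood at 35.7 TPM in cell 70 and 94.4 TPM in cell 75, above its highest value of 8.98 TPM in the main GFP-positive cells. Pcdhga11 was at 115 TPM in cell 47, and Pcdhgb4 at 46.1 TPM in cell 44 and 41.6 TPM in cell 75. Of the 3 cells with Mog, cell 70 held 7 members, cell 68 held Pcdhb20 (18 TPM), Pcdhga2 (17.9 TPM), Pcdhga5 (10.1 TPM) and Pcdhga8 (3.25 TPM), and cell 77 held Pcdhgb4 alone at 2.00 TPM.

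Genes that act on the clusters were measured in the same neurons. The list of CTCF, cohesin, DNA methylation and chromatin genes holds 19 genes, each found in 1 or more of the 62 cells, 13 of them in at least 50% and 1 in at least 90%, with a median of 62.9% of cells. Dnmt3a, a DNA methyltransferase, had the highest mean log2(TPM + 1), 5.56 ± 1.18 (98.4% of cells), followed by the cohesin subunit Smc1a (4.13 ± 2.17) and the cohesin regulator Pds5b (3.71 ± 1.83). The lowest were the repressor Rest (0.18 ± 0.79), the methyltransferase Dnmt3b (0.20 ± 0.76, 4.84% of cells) and the zinc finger protein Wiz (1.06 ± 1.29). Ctcf itself was detected in 37 cells (59.7%, 46.4 to 71.9), with a mean of 2.31 ± 2.16.

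Partners and processing of the proteins were covered by 17 genes, 16 of which occurred in 1 cell or more, 14 in at least 50% and 10 in at least 90%. Cyfip2 (7.03 ± 0.86) and Brk1 (6.49 ± 2.06) of the WAVE complex, which the protocadherin tail is known to recruit, and the GTPase Rac1 (6.38 ± 1.31) had the highest means. The lowest were the kinase Ptk2b, which is related to Ptk2 and was at 0 in all 62 cells, Cyfip1 (1.01 ± 1.44) and Axin1 (1.28 ± 2.00). Adam10, a protease known to cut protocadherins at the surface, was detected in 93.5% of cells.

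The non-clustered protocadherins, which are single genes elsewhere in the genome, were found in more cells. Of 12 genes, 8 occurred in at least 50% of the neurons, with a median of 56.5% of cells, against 1 of 59 and 11.3% for the clustered members. Pcdh7 and Pcdh11x had the highest means (4.79 ± 1.91 and 4.79 ± 2.30), and Pcdh10 and Pcdh17 followed at 4.62 each. Pcdh12 (0.04 ± 0.32), Pcdh1 (0.35 ± 0.95) and Pcdh8 (1.16 ± 2.05) were lowest. Pcdh11x was detected in 56 of 62 GFP-positive cells and in 1 of 5 GFP-negative cells.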

How the data were processed

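Single cells from the SNr of GAD1-EGFP mice were measured by SMART-seq2 with paired reads of 25 bases. Per the submitters' processing notes, the authors used TopHat2 2.0.10, Cufflinks 2.2.1 and Cuffnorm with mm10. The authors deposited FPKM values for 22815 genes in 80 cells, which are normalized by transcript length and mapped fragments. The gene annotation and the scaling of libraries are not given in the sources used here. Cufflinks divides fragments of shared exons among transcripts by likelihood, which affects alpha and gamma members.

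TPM were obtained by scaling the FPKM of each cell to a sum of 1000000. A gene was detected above a TPM of 1, differences were taken on log2(TPM + 1), and genes detected in under 10% of the cells compared were left out. Fragments per cell were estimated from the spacing of low FPKM values over 1083 genes of 1 transcript of at least 2500 bases, assuming fragments of 200 bases. In the median cell 74.4% of low values fell at most 0.05 steps from whole fragments. The methods were tested on simulated data. Shares carry exact (Clopper-Pearson) 95% intervals, and a share of 0 is limited by 3 counts. Both cover counting error only. Symbols were matched to GENCODE M21, and Pcdha10 and Pcdha11 were placed by RefSeq gene records. Pcdha4-g was matched through a RefSeq synonym and was given no position. Python 3.11.15, pandas 2.3.3 and scipy 1.17.1 were used.

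The members and gene lists were chosen with earlier results of these data known. The text names every C-type member, the 5 other members of each cluster detected in most cells and those in 0, up to 5 members beyond the limit in each direction of a comparison, and the 3 highest and 3 lowest genes of each list. Other members were named after their values were seen. Other thresholds, cells and pseudocounts were tried as alternatives. One marker gene of the lists is not reported here.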

Additional observations from a re-analysis of the deposited data

Results flagged for a closer look

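In groups of 4 to 10 cells, 30 sets of values were examined for a single cell that stands apart (Dixon's criterion), and 5 were flagged. The criterion flags about 1 in 20 groups when values are independent and normally distributed. These sets share cells and hold small counts or levels with many values near 0. The 5 flags are therefore not read as more than that rate. At day 14, cell 51 held 11 beta members against 1 to 6 in the other 8 cells. At day 20, cell 37 held 5 alpha members against 1 to 3, and its Pcdhac2 stood at 6.18 as log2(TPM + 1) against 0.00 to 2.05. In cell 35 of the same day the summed beta TPM was 0.00 as log2(TPM + 1), against 5.97 to 7.82. Among the GFP-negative cells with over 5000 genes, cell 70 had a summed gamma level of 0.00 on the same scale, against 5.03 to 6.31 in the other 4. Cell 70 held Pcdha4-g, which was counted in the alpha cluster, at 35.7 TPM. Values of that model cannot be told apart from the gamma constant exons, and its part in this flag was not tested. Cell 37 had the most detected genes (9391) and fragments (2506109) of the main cells of day 20. Cell 35 had the fewest detected genes of all main cells (5094). Cells 51 (9439 genes) and 70 (6485 genes) lay within the range of their groups. The part of depth in these values was not tested.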

How the results depend on the processing

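The labels name no animal, so no alternative gave a test. At TPM > 0, members per cell rose from 8.45 to 38.5, the mean Jaccard index from 0.125 to 0.71 and the share of cells with Pcdhgc4 from 64.5% to 95.2%, because values under 0.01 TPM then counted as detected. At TPM > 10, Pcdhgc4 was found in 40.3% of cells. For these quantities and the number of members found in at least 1 cell, the other alternatives (TPM > 5, FPKM > 1, all GFP-positive cells, without cells in which 1 gene held over 25% of FPKM, for the Jaccard index also without the C-type members, and, chosen after seeing the data, without cell 45, which had the highest astrocyte markers, or without Pcdha4-g) moved the value by less than the spread between cells or pairs, or within the interval of the share. With a pseudocount of 0.1, 17 members in place of 4 were beyond the limit between GFP-negative and GFP-positive cells (55.6% of all genes) and 19 in place of 10 between day 20 and day 14 (48.3% of all genes). On log2(FPKM + 1), 3 members (7.69%) were beyond it between day 20 and day 14 (18.1% of all genes), where the median difference of all genes was -0.14 in place of -0.26. Leaving out each GFP-negative cell in turn, an alternative chosen after seeing the data, gave 4 to 12 members (11.8% to 33.3% of those compared, against 36% to 43% of all genes). No paired analysis was possible because the labels give no replicate numbers shared between groups. A TPM of 1 stood for under 1 fragment in the shallowest cells (0.197), and the effect of depth on the detection of single members was not tested.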
